A study of Homo sapiens with 6 samples.

Results

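TOP2A, MKI67, CENPF, CENPE, BUB1B, TPX2, KIF11, KIF20B, ASPM and NUSAP1 encode proteins of the mitotic spindle, the kinetochore and mitotic chromosomes. The contacts of eIF4B with their transcripts are described here. The 10 genes were chosen by symbol, as a functional group, out of 13160 protein-coding genes that had a MANE Select transcript (the reference isoform of a gene) and at least 1 count in either cell line. eIF4B contacts were mapped by iCLIP, in which RNA is cross-linked to protein by UV light, most readily at uridine, and the cDNA ends next to the cross-linked nucleotide. DoHH-2, a line from a diffuse large B-cell lymphoma, has 4 labelled replicates, and GM01953, a control B-cell line, has 2. Both lines were untreated as far as the labels say, they are not isogenic, and each disease state is represented by 1 line. The deposited values pool the replicates, so each line has a single value at every position. No SD and no test between the lines can be given, and the intervals below are 95% intervals for counting error only.

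eIF4B is a cofactor of the RNA helicase eIF4A, which unwinds mRNA during translation initiation. The 10 proteins act mainly in G2 and M phase: topoisomerase and coating proteins shape the condensed chromosomes, kinetochore proteins attach them to microtubules, and kinesins and microtubule-associated proteins build the spindle. Their mRNAs are abundant in dividing cells, and several have unusually long coding sequences. The deposited tables hold no RNA level, so more mRNA and more eIF4B per mRNA cannot be told apart in any value below.

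The following windows show nucleotides with the highest count of their gene in one of the lines, a nucleotide of MKI67 that recurred in both, and the highest 3′ UTR nucleotide of TOP2A, TPX2 and NUSAP1 in DoHH-2. Each runs 5′ to 3′ on the transcribed strand of GRCh38 with 14 nt to each side, and the capital marks the cross-link position.
TOP2A, 42 nt upstream of the start codon, chr17:40417819-40417847, minus strand: gggtcctgcctgttTagtcgctttcaggg
TOP2A, codon 417, chr17:40408571-40408599, minus strand: taaactgggtgaagTttaaggcccaagtc
TOP2A, 3′ UTR, chr17:40388579-40388607, minus strand: gtttttgtaaatatTtactatgtttttct
MKI67, 9 nt upstream of the start codon, chr10:128125662-128125690, minus strand: atactcaacttactGtttagaaaatgtgg
CENPF, codon 601, chr1:214640127-214640155, plus strand: gccttgctgagtgcTttagagttaaaaaa
CENPE, codon 794, chr4:103159216-103159244, minus strand: tagagttcaaggttTacttgaagaaattg
BUB1B, codon 98, chr15:40170577-40170605, plus strand: aaggagagtaatatGtcaacgttattaga
KIF11, 7 nt upstream of the start codon, chr10:92593355-92593383, plus strand: gattttttggcgggGaccgtcatggcgtc
TPX2, 3′ UTR, chr20:31801438-31801466, plus strand: cctctccccactttTtttaaaaattttaa
NUSAP1, codon 36, spliced exons 1 and 2 around position 41342399 of chr15, plus strand: ggcaaccaagttgtTaaaagccttgaaag
NUSAP1, codon 168, chr15:41356080-41356108, plus strand: ctctacacagatgaGtcatccaaacctgg
NUSAP1, 3′ UTR, chr15:41380229-41380257, plus strand: ttttccttttgtaaAttttttttttttgc
Codons are numbered from the start codon of the MANE Select transcript. The upstream and codon windows show where contacts gathered near the start of translation or at single nucleotides, and the 3′ UTR windows of TOP2A, TPX2 and NUSAP1 are 62.1%, 44.8% and 72.4% T.

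DoHH-2 held 2033156 cDNA counts and GM01953 held 167197, a 12.16-fold difference in depth. All 7 B-cell markers, among them CD74 and PAX5, had counts in both lines, and the 6 markers of T cells, myeloid cells, liver and fibroblasts had none, which allows up to 1.48 and 17.9 counts per 1000000 counts of the line (CPM). MS4A1, which encodes CD20, had 13 counts in DoHH-2 and 152 in GM01953.

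The 10 genes together had 6977 counts at 5245 positions in DoHH-2 and 444 counts at 241 positions in GM01953. By count, all 10 lay between percentiles 91.2 and 99.3 of coding genes with a count in DoHH-2, whereas in GM01953 the percentiles ran from 39.5 to 99.1. By counts per kb of mRNA, their percentiles ran from 68.9 (ASPM) to 97.35 (NUSAP1) in DoHH-2. In GM01953 they ran from 28.9 (ASPM) to 96 (TOP2A). Single counts made up 82.2% of their positions in DoHH-2 and 60.2% in GM01953. In DoHH-2 the counts were spread over many thinly covered nucleotides, where 6.76% of the 68967 nt of mRNA carried a count, against 0.315% in GM01953.

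Among the chromosome proteins, TOP2A encodes topoisomerase IIα, which untangles sister DNA molecules. It had 1559 counts in DoHH-2 and 113 in GM01953, or 766.8 and 675.8 CPM. MKI67 encodes Ki-67, the proliferation marker that coats mitotic chromosomes. It had 1567 and 112 counts, or 770.7 and 669.9 CPM. In both lines these were the highest totals of the group, and the lines differed by less than the counting error for either gene.

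CENPF and CENPE encode large proteins of the outer kinetochore, and CENPE is also a kinesin motor. CENPF had 917 counts in DoHH-2 but only 26 in GM01953, or 451.0 and 155.5 CPM. CENPE had 575 and 48 counts, or 282.8 and 287.1 CPM. The gap between the lines exceeded counting error for CENPF and lay within it for CENPE. BUB1B encodes the spindle checkpoint protein BUBR1 and had 293 and 18 counts, or 144.1 and 107.7 CPM. Of its counts, 66 in DoHH-2 and 1 in GM01953 lay at positions also listed under the readthrough gene BUB1B-PAK6. These cannot be assigned to either gene.

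Among the spindle proteins, NUSAP1, which bundles microtubules, had 621 counts in DoHH-2 and 45 in GM01953, or 305.4 and 269.1 CPM. TPX2, which activates Aurora A and nucleates microtubules, had 449 and 43 counts, or 220.8 and 257.2 CPM. KIF11, the Eg5 motor that separates the spindle poles, had 342 and 22 counts, or 168.2 and 131.6 CPM. KIF20B, a kinesin of the central spindle, had 339 and 12 counts, or 166.7 and 71.8 CPM. ASPM, a protein of the spindle poles, had 315 and 5 counts, or 154.9 and 29.9 CPM. KIF20B and ASPM were the spindle genes whose gap between the lines exceeded counting error.

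**Figure D1:**
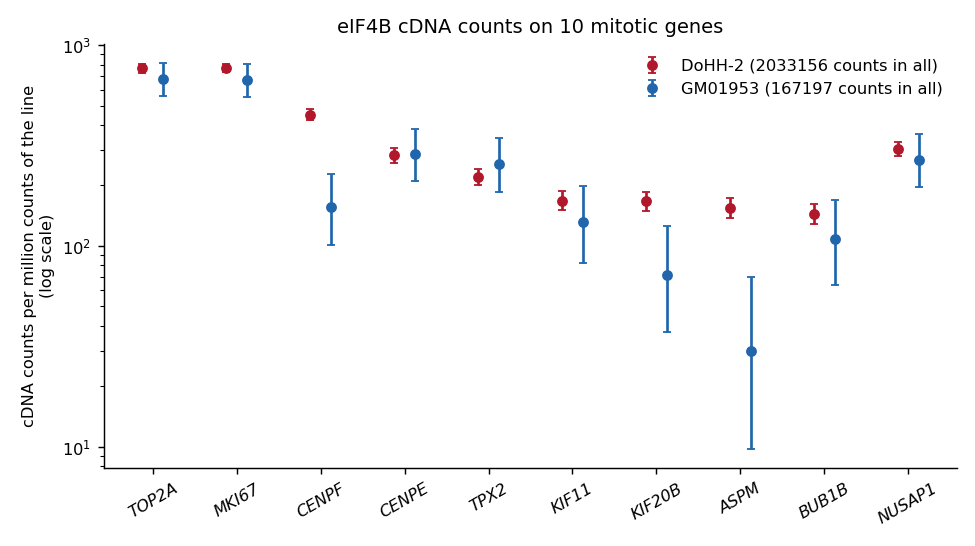
CPM of each gene, on a log axis, with DoHH-2 in red and GM01953 in blue. Bars are exact Poisson 95% intervals of the pooled count; they separate for CENPF, KIF20B and ASPM and overlap for the other 7 genes.

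As a share of all counts, the 10 genes together were 1.29-fold higher in DoHH-2 (95% interval 1.17 to 1.43), but 1.018-fold when only positions with an FDR, the deposited false discovery rate of a position, under 0.01 were counted. CENPF was 2.90-fold higher (1.97 to 4.46), KIF20B 2.32-fold (1.31 to 4.54) and ASPM 5.18-fold (2.20 to 16.1). For TOP2A the ratio was 1.13 (0.937 to 1.39), for MKI67 1.15 (0.949 to 1.41), for NUSAP1 1.13 (0.838 to 1.57), for KIF11 1.28 (0.831 to 2.07) and for BUB1B 1.34 (0.832 to 2.29). CENPE and TPX2 were below 1, at 0.985 (0.733 to 1.35) and 0.859 (0.627 to 1.203). An interval that includes 1 does not show equal shares, and for BUB1B and KIF11 it also includes a 2-fold difference. The BUB1B ratio keeps 66 DoHH-2 counts and 1 GM01953 count at positions shared with BUB1B-PAK6. A BUB1B ratio without them was not computed.

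A 2-fold higher share in DoHH-2 was seen for 3 of the 10 genes, against 28% of the 4372 coding genes with 100 counts or more in both tables together. All 10 passed this minimum, which is reached mostly through the deeper DoHH-2 table. A 2-fold higher share in GM01953 was seen for none of the 10, against 8.14% of those genes. The median ratio was 1.21 for the 10 genes and 1.29 over all tested genes, and 8 of 10 were above 1 against 64.7%. The ratio between the lines was therefore near that of coding genes in general, and the group value of 1.29 fell to 1.19 when CENPF was left out.

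**Figure D2:**
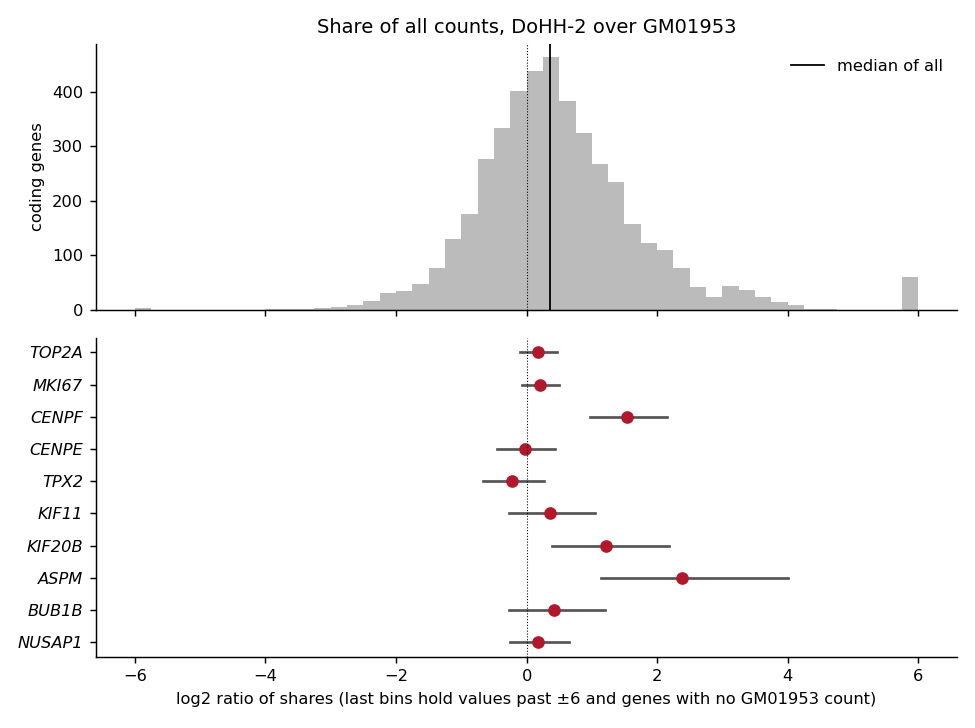
Upper panel, log2 ratio of a gene's share of counts in DoHH-2 to that in GM01953 for coding genes with 100 counts or more, with their median as a line. Lower panel, the same ratio for the 10 genes with 95% intervals; CENPF, KIF20B and ASPM lie wholly right of 0 and the other 7 span it.

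Binding sites are positions whose deposited FDR was below 0.05, and a gene with over 20 counts at such sites was called bound. The paper further required enrichment over total RNA, which this call leaves out. In DoHH-2, 9 of the 10 mRNAs were bound, against 32.9% of coding genes with a count. The median of the 10 genes was 512 counts in DoHH-2 and 34.5 in GM01953, against 54 and 6 for coding genes with a count. A gene with 20 counts or fewer cannot be called, and the share among coding genes of similar count was not computed. Of the 10, only ASPM was not bound in DoHH-2, with 12 counts at 3 sites. The others ranged from 82 counts at 51 sites on BUB1B to 916 counts at 458 sites on TOP2A. In GM01953, TOP2A (78 counts at sites), MKI67 (50), CENPE (41), NUSAP1 (35) and TPX2 (29) were bound, which is 5 of 10 against 8.35% of coding genes. CENPF, KIF11, KIF20B, ASPM and BUB1B held between 2 and 6 counts at sites there. Their totals were 5 to 26 counts, and CENPF and KIF11 alone had over 20, so that the lack of a call cannot be read as a lack of sites at this depth.

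Counts concentrated at sites to different degrees. On NUSAP1, 73.8% of the DoHH-2 counts lay at sites, on TOP2A 58.8% and on TPX2 52.8%. On ASPM the share was 3.81%, and 93.1% of its positions carried a single count. In GM01953 the highest share was that of CENPE, at 85.4%.

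Per kb of mRNA, the order changed, because the transcripts range from 2263 nt for NUSAP1 to 12716 nt for MKI67. NUSAP1 had the highest density in DoHH-2, with 262.9 counts per kb, followed by TOP2A with 255.8. TPX2 (120.1) and MKI67 (118.3) came next, then CENPF (85.9), BUB1B (62.4), KIF11 (55.2), CENPE (51.9), KIF20B (46.9) and ASPM (21.3). The Poisson intervals overlapped for NUSAP1 (242.2 to 284.9) and TOP2A (242.9 to 269.3), for TPX2 and MKI67, among BUB1B, KIF11 and CENPE, and for KIF20B with KIF11 and CENPE, whereas ASPM (18.6 to 24.2) lay below all others. In GM01953, TOP2A (18.96 counts per kb), NUSAP1 (17.2), TPX2 (11.8) and MKI67 (8.81) again led and ASPM (0.460) was again last. The densities of the 2 lines ranked the 10 genes in a similar order (Spearman's rho 0.879 over n = 10 genes, each from the same pair of pooled libraries). Total counts followed mRNA length only weakly in DoHH-2 (rho 0.249, n = 10) and not in GM01953 (rho −0.018).

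Most eIF4B contacts on these mRNAs lay in the coding sequence. Each position was placed on the MANE Select transcript, with the regions within 50 nt of the start and stop codons taken apart. The CDS held 71.3% of the mRNA counts in DoHH-2 (70.2 to 72.4) and 72.9% in GM01953 (68.4 to 77.1), against 43.97% and 44.8% over coding genes without histones. CDS also makes up 82.0% of the length of these mRNAs and 43.9% of that of the other set in DoHH-2. Per kb, the CDS was the region with the lowest density in DoHH-2, at 79.9 counts per kb. The start codon region had 270.9 counts per kb, the 3′ UTR 140.7, the stop codon region 135.9 and the 5′ UTR 105.5.

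The start codon region was denser than the CDS for 7 of the 10 genes in DoHH-2, against 70.9% of coding genes with 100 counts or more. TOP2A had 70 counts there and NUSAP1 65, which are 679.6 and 631.1 counts per kb. MKI67 had 53 (514.6 per kb), 4.29-fold the density of its CDS. CENPE, ASPM and BUB1B, with 2, 1 and 2 counts, had less there than on the CDS. The annotated 5′ UTR of CENPE is shorter than 50 nt, so its start codon region covers 77 nt in place of 103.

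The 3′ UTR was denser than the CDS for 8 of the 10 genes in DoHH-2, against 44.2% of 4264 coding genes with 100 counts or more. The ratio of the densities was 1.76 for the 10 genes together, 1.345 without TOP2A and NUSAP1, and 0.708 for the other coding genes with 100 counts or more, histones left out. TOP2A had 348 counts on its 3′ UTR (368.6 per kb) and NUSAP1 275 (339.5 per kb), and the ratio to the CDS was 1.65 and 2.05. TPX2 had 118 counts there, 1.97-fold the density of its CDS. MKI67 and KIF11 were the exceptions, with ratios of 0.814 and 0.716. Among the 8, the difference was small for CENPF, with 67 counts and a ratio of 1.09. ASPM had only 6 counts on its 3′ UTR of 147 nt outside the stop codon region. In GM01953 the 3′ UTR of the 10 genes held 41 counts, 0.901-fold the CDS density, against 0.489 for the other genes.

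The shares of regions differed between the lines. The start codon region held 4.29% of the mRNA counts in DoHH-2 (3.82 to 4.82) and 9.77% in GM01953 (7.23 to 13.1). The 3′ UTR held 19.6% (18.7 to 20.6) and 10.3% (7.67 to 13.6). Over coding genes without histones the same shares were 9.35% and 12.8% at the start codon and 32.8% and 22.9% on the 3′ UTR, in the same direction as on the 10 genes.

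A gene was assigned to a region when that region held at least 50% of the summed site densities of the 5 regions. In DoHH-2, TOP2A, MKI67, KIF11 and KIF20B were assigned to the start codon, 4 of the 9 bound genes against 27% of the 3572 genes with over 20 counts at sites on the mRNA itself. CENPE and BUB1B were assigned to the 3′ UTR, against 12.3%, and CENPF, TPX2 and NUSAP1 to none, against 25%. The 5′ UTR, the CDS and the stop codon took 0 of the 9, against 19%, 8.57% and 8.03%. These calls rest on unequal numbers. TOP2A had 66 counts at start codon sites and passed at 50.03%, and MKI67 had 46 at 70.5%. KIF20B had 14 counts at start codon sites and passed at 50.3%, with its stop codon region at 39.5%. Over all its counts, the stop codon region of KIF20B was denser than the start codon region (165 against 145.6 per kb). BUB1B had 16 counts at 3′ UTR sites. In GM01953, TOP2A, MKI67 and TPX2 were assigned to the start codon with 12, 7 and 7 counts, against 23% of 543 such genes, CENPE to the CDS, against 11%, and NUSAP1 to none, against 16.9%. The 5′ UTR, the stop codon and the 3′ UTR took 0 of these 5, against 24.5%, 16.2% and 8.29%.

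Introns took 8.64% of the counts in DoHH-2 (8.01 to 9.33) and 9.69% in GM01953 (7.27 to 12.8), against 18.4% and 18.9% over coding genes without histones. These are sums over genes. The median per gene in DoHH-2 was 8.39% for the 10, 21.3% for coding genes with a count and 14.2% for those with 100 counts or more. In GM01953 the same medians were 6.17%, 3.30% and 8%, so the gap seen in the sums did not hold per gene there. At sites alone the intron share of the 10 genes was 1.41% in DoHH-2 and 11.9% in GM01953, so that the likeness of the lines held only over all positions. Of the GM01953 intron counts at sites, 15 were on CENPE. ASPM (25.4%), CENPE (23.0%), KIF11 (19.0%) and BUB1B (18.4%) had the highest intron shares in DoHH-2, and CENPF (3.16%) and MKI67 (3.96%) the lowest. The highest position of ASPM, with 6 counts at chr1:197091170, lay in intron 22, 129 nt from the nearest exon. In GM01953, 17 of the 48 CENPE counts were intronic, 8 of them at a single nucleotide of intron 9.

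Along the coding sequence, contacts declined from 5′ to 3′ in DoHH-2. In GM01953 the first part held the most, and the middle and last parts were nearly alike. The first, middle and last parts of the CDS, each of equal length, held 40.65%, 32.6% and 26.7% of the CDS counts in DoHH-2, and 52.98%, 23.8% and 23.2% in GM01953. Over 1260 other coding genes with 100 CDS counts or more the first part held 45.05% in DoHH-2, above the value of the 10 genes, and over 1133 with 10 CDS counts or more it held 49.5% in GM01953, below theirs. When the codon regions were left out, a choice made after seeing the data, the first part still held 39.9% in DoHH-2 and 52.9% in GM01953. With the codon regions kept, the first part was the largest for 6 of the 10 genes in DoHH-2, against 73.7% of the 1260 others. In GM01953 it was the largest for 7, against 61.4% of the 1133 others. No minimum was set for the 10 genes: ASPM, counted among the 7, had 4 CDS counts in GM01953, and KIF20B had 9. In DoHH-2, ASPM (47.9%), CENPF (46.1%) and MKI67 (43.9%) had the largest first part. CENPE and NUSAP1 had their largest part at the 3′ end (37.1% and 35.2%), and TPX2 and KIF20B in the middle (42.5% and 38.7%). Bases 1, 2 and 3 of the codon carried 34.3%, 33.35% and 32.3% of the CDS positions in DoHH-2. Of the uridines in these coding sequences, 22.5%, 36.1% and 41.35% lie at bases 1, 2 and 3, so the positions did not follow the uridine shares.

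Shares of counts on long exons in DoHH-2 lay on either side of their shares of length. Exon 13 of MKI67 (chr10:128102579-128109423, 6845 nt), which encodes the repeats of Ki-67, held 50.5% of the mRNA counts on 53.8% of the length. Exon 18 of ASPM held 38.5% on 43.8%, exon 3 of ASPM 26.4% on 13.6%, exon 12 of CENPF 41.6% on 33.1% and exon 20 of KIF20B 26.8% on 19.1%. The last exons of NUSAP1 and TOP2A exceeded their length, with 54.3% on 42.2% and 27.04% on 19.7%. In GM01953, exon 13 of MKI67 held 32.1% of the mRNA counts, and exon 18 of ASPM held none of 5.

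**Figure D3:**
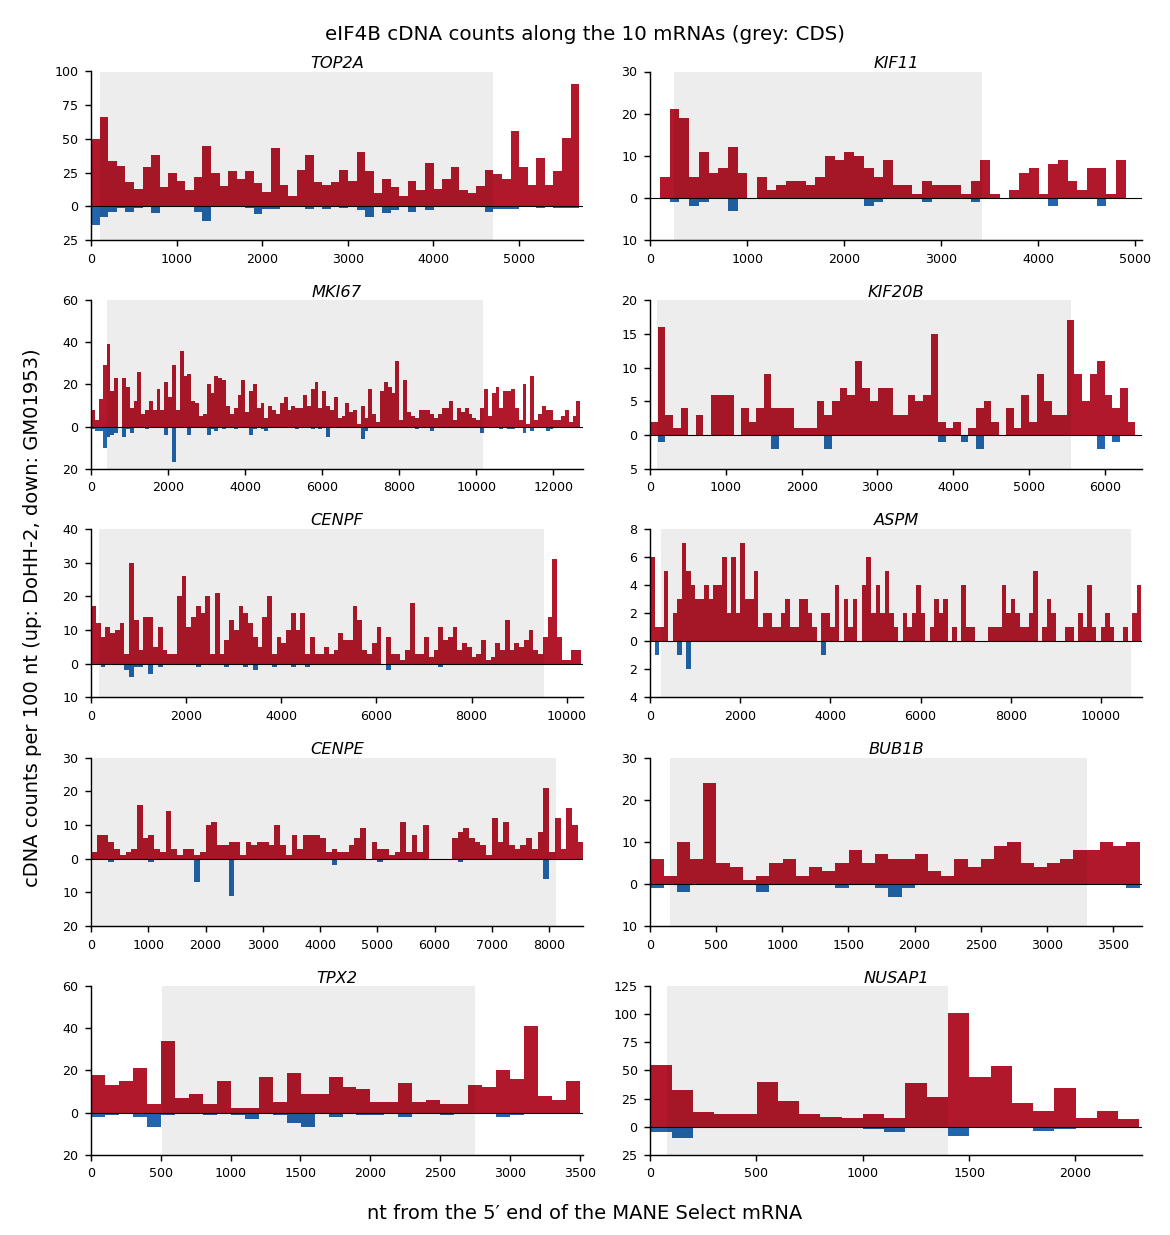
cDNA counts in 100-nt bins along the 10 mRNAs, with DoHH-2 drawn upwards in red, GM01953 downwards in blue and the CDS shaded; each panel has its own linear axis. TOP2A and NUSAP1 peak in the 3′ UTR in DoHH-2, KIF11 and MKI67 near the start codon, and the GM01953 counts of CENPE fall in a few isolated bins.

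The densest 50 nt of each mRNA in DoHH-2 showed 3 kinds of place. On NUSAP1 it was centred in the 3′ UTR and reached into the stop codon region, at mRNA positions 1444 to 1493, and held 91 counts, 15.3% of all mRNA counts, against a mean of 13.15 per 50 nt. Its highest nucleotide, 18 counts, precedes the run of T in its 3′ UTR window. On TOP2A it lay near the end of the 3′ UTR, at positions 5604 to 5653 of 5695, with 83 counts. On TPX2 the 3′ UTR window of 50 nt held 35 counts. On MKI67, KIF11 and KIF20B the densest 50 nt lay at the start codon, with 40, 20 and 14 counts. On CENPF (24), CENPE (18), BUB1B (20) and ASPM (6) it lay in the CDS.

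Single nucleotides with high counts were rare, since 93 positions had 5 counts or more in DoHH-2, and GM01953 had 16. The highest single count was codon 168 of NUSAP1, with 27 counts in DoHH-2 and none in GM01953 within 5 nt. CENPF codon 601 and the KIF11 position upstream of the start codon had 15 each, and BUB1B codon 98 had 11, all without a GM01953 count within 5 nt. Scaled by depth, 27, 15 and 11 counts correspond to 2.22, 1.23 and 0.905 in GM01953, which is under the 3 counts that a count of 0 allows, so a difference at these nucleotides was not detectable.

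Some contacts recurred at the same nucleotide in both lines. Codon 417 of TOP2A had 10 counts in DoHH-2 and 8 in GM01953, where it tied with codon 1054 as the highest position of the gene. Codon 1054 had no DoHH-2 count at the same nucleotide, but 11 within 5 nt. Codon 36 of NUSAP1 had 9 and 8 counts and was the highest NUSAP1 position in GM01953. The position 9 nt upstream of the MKI67 start codon had 7 and 4 counts. Upstream of the TOP2A start codon, the highest GM01953 position, with 5 counts at chr17:40417831, had 22 DoHH-2 counts within 5 nt, 13 of them at the nucleotide 2 bases upstream. These places carried contacts in both lines in spite of the difference in depth.

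Of the 241 GM01953 positions on the 10 genes, 90 (37.3%, 31.5 to 43.6) had a DoHH-2 count at the same nucleotide, which is 1.72% of the DoHH-2 positions. Within 5 nt the number was 180 (74.7%, 68.8 to 79.8). Over coding genes the shares were 32.9% and 55.8%. The recurrence was highest on TOP2A (28 of 47 at the same nucleotide) and NUSAP1 (12 of 22), the genes with the highest DoHH-2 density, and the part of density in it was not tested.

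CENPE had the highest mean count per position of the 10 genes in GM01953. Its 48 counts lay at 16 positions, a mean of 3 per position, against 1.14 in DoHH-2. The nucleotide at codon 794 held 11 of them (22.9%), intron 9 held 8, codon 597 held 7 and codon 2631 held 6, and none of these had a DoHH-2 count at the same nucleotide. Only 3 of the 16 positions recurred in DoHH-2, and 5 within 5 nt. CENPE was called bound in GM01953 on these stacks, and the part of PCR copies left after the removal of duplicates was not tested.

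Uridine was the most frequent base at cross-link positions. It made up 41.4% of the positions on the 10 mRNAs in DoHH-2 (40.02 to 42.9) and 47.0% in GM01953 (40.5 to 53.6), whereas uridine makes up 24.2% of these mRNAs. Other coding genes, histones included, had 41.2% and 38.3%, in mRNAs with 25.9% and 26.1% uridine. The next nucleotide was uridine in 43.0% and 44.2%, and 3 nt downstream the share was back at 22.9% and 23.0%. Among the genes, the DoHH-2 share ran from 34.5% on MKI67, whose mRNA has the least uridine (18.8%), to 52.6% on ASPM (27.2%).

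**Figure D4:**
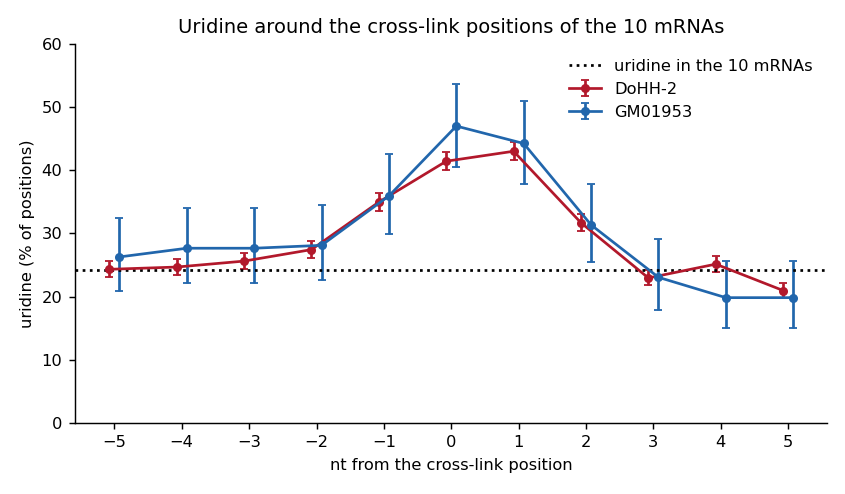
Percentage of cross-link positions with uridine at each offset of up to 5 nt to either side, over the 10 mRNAs, with Wilson 95% intervals; the dotted line is the uridine content of the mRNAs. The widest gaps above it lie at offsets −1 to 2, with the highest share at the position itself in GM01953 (47.0%) and at the next nucleotide in DoHH-2 (43.0%).

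In the windows of NUSAP1 codon 168 and BUB1B codon 98 the capital is followed by tca. The letters TCA, read on the transcribed strand directly after the position, were chosen after the windows were seen. They followed 16 of the 90 mRNA positions with 5 counts or more in DoHH-2 (17.8%, 11.2 to 26.9) and 5.28% of all positions, against 2.07% of the triplets in these mRNAs. On other coding genes they followed 5.85% of positions with 5 counts or more. In GM01953 they followed 1 of 15 such positions. The 90 positions include those of the windows in which the letters were seen. TTT followed 13 of the same 90 in DoHH-2 (14.4%, 8.64 to 23.2), and its interval overlaps that of TCA. It followed 5.88% of all DoHH-2 positions, against 2.2% of the triplets, and none of the 15 in GM01953. A match is a description of the letters and names no binding site.

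Most other mitotic genes were bound in DoHH-2. The call depends on the total counts of a gene, and its share among coding genes of similar count was not computed. A list of 65 genes of the kinetochore, checkpoint, mitotic kinases, kinesins, spindle, condensin and cohesin and anaphase promotion had 51 bound genes in DoHH-2 and 11 in GM01953, against 32.9% and 8.35% of coding genes. Of the 54 with 100 counts or more, 13 had a 2-fold higher share in DoHH-2 and 4 in GM01953, against 28% and 8.14% of coding genes, and their median ratio was 1.22, close to that of the 10 genes. All 11 genes of the spindle and cytokinesis were bound in DoHH-2, against 7 of 13 of the kinetochore and centromere. Of the 14 genes listed under condensin and cohesin, 13 were bound. These include TOP2B, which is a subunit of neither complex.

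The highest densities on the list in DoHH-2 were those of TOP2B (476.6 counts per kb), the interphase paralogue of TOP2A, and RAD21 (238.5), a cohesin subunit. BIRC5 (193.9) encodes survivin of the chromosomal passenger complex, PTTG1 (146.9) encodes securin, and TACC3 (116.8) a spindle microtubule protein. In GM01953, RAD21 (42.6), PTTG1 (25.2) and BIRC5 (20.6) led. TOP2B had 2942 and 57 counts and a 4.24-fold higher share in DoHH-2 (3.27 to 5.62), whereas its paralogue TOP2A differed by less than counting error between the lines. RAD21 had 906 and 158 counts and a ratio of 0.472 (0.398 to 0.562), so the share was higher in GM01953.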

How the data were processed

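The authors removed PCR duplicates with BBMap, demultiplexed with Je, trimmed barcodes, pooled the replicates, mapped them to GRCh38 with HISAT2 and ran iCount. Versions and the annotation release are not given in the sources used here. The deposited score is a cDNA count per cross-link position and was not normalized. The deposited FDR, treated as a q-value, compares the count around a position with permutations within its gene. Positions were found to be counted from 0, by the rows at gene edges, and were converted to count from 1. Rows of the 10 symbols were summed over unique positions and placed on MANE Select transcripts of GENCODE release 44. Wilson intervals for shares, exact Poisson intervals for counts and conditional exact intervals for ratios of shares were computed with scipy, and the steps were tested on simulated data. The tables hold 2033156 counts for DoHH-2 and 167197 for GM01953, and intervals cover counting error only. The alternatives changed FDR limits, units, transcripts, codon regions and denominators. The 10 genes and all lists were chosen with earlier results of these data known. Named genes are the 10, the 5 densest other mitotic genes in DoHH-2 and the 3 densest in GM01953. MS4A1 was named after its values were seen. The extended score was not used.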

Additional observations from a re-analysis of the deposited data

How the results depend on the processing

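No paired analysis was possible because the deposited tables pool the replicates of each line, and no replicate could be left out for the same reason. Of 29 alternative values, 14 stayed within the counting error of the reported value, or within 1.5 times of a count of genes, 15 moved beyond it and 0 changed direction. The share ratio of 1.29 became 1.018 with an FDR below 0.01, 1.45 by number of positions and 1.43 without the highest position of each gene. With more than 50 counts required, 1 gene (TOP2A) was bound in GM01953 in place of 5. The CDS share in DoHH-2 was 72.9% with codon regions of 25 nt, 60.4% at sites with an FDR below 0.05 and 74.2% by number of positions, and in GM01953 it was 79.7% at sites and 67.3% by number of positions. The intron share in DoHH-2 was 1.41% at sites (11.9% in GM01953) and 10.6% by number of positions. The uridine share rose with counts as weights to 45.5% in DoHH-2 and 54.4% in GM01953, and at sites to 53.5% and 58.2%. The cause of these shifts was not tested. Depth limits GM01953, in which 5 of the 10 genes had 26 counts or fewer.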
